A study of Homo sapiens with 16 samples.

Results

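The 10 genes described here were lower in MDA-MB-231 cells when a control hairpin was switched on: HSD17B10, DYNLRB1, DYNLL2, NCEH1, H2AFX, USP40, KATNAL1, LMLN, EVI5L and MORF4L1. They were named by symbol from a table of 57500 genes, and they were chosen from their levels in shScramble cells with doxycycline against shScramble cells without it. The values of that comparison are therefore a description and carry no test. The tests below ask whether each gene also moved when the other hairpin of the study, shAKAP2, was induced. Their estimate of the spread draws on all 16 libraries, the shScramble libraries on which the genes were chosen included. The rule for the choice names only the shScramble groups, but it was made with results of all 16 libraries known.

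MDA-MB-231 is a human triple-negative breast cancer line. All 16 libraries of polyadenylated RNA came from it, in 4 groups of 4: shScramble cells with doxycycline, shScramble cells without it, shAKAP2 cells with doxycycline and shAKAP2 cells without it. Doxycycline induces the promoter of the hairpin RNA in both lines, so that an induced group differs from its uninduced group by the drug and by the hairpin together. The sources used here do not give the dose, the duration, the hairpin sequences, or whether each line is 1 clone or a pool. Libraries of a group are labelled as biological replicates but not as separate cultures, and p-values therefore cover only the spread seen between them, which may be technical.

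Libraries held 24482997 to 37472525 counts, and levels are given as CPM, counts per library scaled to a common size. AKAP2, the gene that the second hairpin targets, had 3, 0, 1 and 0 counts in replicates 1 to 4 of induced shAKAP2 cells, against 42, 36, 37 and 53 in uninduced shAKAP2 cells. It summed to 212 counts in induced and 144 in uninduced shScramble cells. VIM and CD44 were high in all groups (means of 1400 to 1720 CPM for VIM), and the hormone receptor genes ESR1 and PGR averaged at most 0.0375 CPM in every group. The luminal markers ERBB2 and GATA3, listed as low or absent in this line, were present. Their group means were 55.8 to 65 CPM for ERBB2 and 11.3 to 18.9 CPM for GATA3. Among the shScramble libraries, replicate 1 of both groups stood apart: its root mean square log2 distance to the rest of its group was 0.615 with and 0.565 without doxycycline, against 0.391 to 0.469 for the other 6 libraries. The summed level of 12 markers of blood, endothelial and stromal cells was 33.1 to 44.3 CPM in induced against 18.2 to 30.1 CPM in uninduced shScramble libraries. PDGFRB made up the largest part of it, with means of 16.8 and 9.85 CPM, while the mean of VWF went the other way (0.0319 and 0.0545 CPM). Of the 10 that could be tested, 3 were higher and 0 lower, against 0.559% and 0.52% of all genes. CD3E had 0 counts in both shScramble groups. In the shAKAP2 line the sum was 16.1 to 21.3 CPM with and 19.5 to 24.1 CPM without the drug. There 0 markers were higher and 1 lower, against 13.1% and 15.2% of all genes. The part of these markers in the results below was not tested.

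A short hairpin RNA is cut into a small RNA that guides the Argonaute protein to transcripts. A transcript that pairs along its whole length with the guide is cleaved. A transcript that pairs only with the seed, the stretch near the 5′ end of the guide, can be lowered too, as it would be by a microRNA, and such seed matches act mostly in the 3′ untranslated region (3′ UTR). A scrambled hairpin lacks a designed target but still has a seed. Among the 10 genes are parts of the dynein motor, a microtubule-severing enzyme, chromatin proteins, enzymes of mitochondrial and lipid metabolism and proteases.

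Words of 7 letters were counted on the sense strand in 1 annotated 3′ UTR per gene, in GENCODE release 29 of GRCh38. The word with the largest gain in share among genes lower in shScramble cells, with the 10 genes left out, was GTCGCCC. It stood in 24 of 67 such genes (35.8%), against 490 of 12590 genes not called (3.89%) and 4.07% of all tested genes with a 3′ UTR. Of the 10 genes, 5 hold it: HSD17B10, DYNLRB1, USP40, KATNAL1 and EVI5L. LMLN holds it in a longer annotated 3′ UTR of 5053 bases and not in the one of 344 bases used for the count; with every annotated transcript the share was 6 of the 10 genes, against 5.01% of all tested genes. The word with the next largest gain, CTCCTGC, stood in 49.3% of the other lower genes and 23.3% of genes not called. GTCGCCC was chosen from the data, out of 16384 possible words of 7 letters, and has no test. The sites of HSD17B10, DYNLRB1, USP40, EVI5L and LMLN are shown with 9 bases on either side where the transcript allows, 5′ to 3′, with the word in capitals.
HSD17B10, chrX:53431283-53431307, minus strand: tgcctaccaGTCGCCCtctgtgcct
DYNLRB1, chr20:34540897-34540921, plus strand: gttcactttGTCGCCCttggagaaa
USP40, chr2:233477162-233477186, minus strand: gctctggatGTCGCCCacccagctg
EVI5L, chr19:7864921-7864945, plus strand: tgttcacatGTCGCCCaggcgggaa
LMLN, chr3:198042013-198042037, plus strand: gggaacctgGTCGCCCagtgttttc

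Of the remaining genes, all but MORF4L1 hold shorter overlapping words. Of all genes tested, 7.48% hold the 6 letters GTCGCC and 4.14% hold AGTCGC, which shares 5 letters in a row with GTCGCC; both were looked up after the sites above had been seen. DYNLL2 holds both in 1 site, and NCEH1 and H2AFX hold AGTCGC. In the 3′ UTR used for the count, 8 of the 10 genes hold at least 1 of these 6-letter words. The share was 35 of 67 other genes lower in shScramble cells (52.2%) and 9.83% of all tested genes. With every annotated transcript, 9 of the 10 genes hold at least 1, against 36 of 67 other lower genes (53.7%) and 12.1% of all tested genes. MORF4L1 holds neither. The sites of DYNLL2, NCEH1 and H2AFX are shown with AGTCGC in capitals.
DYNLL2, chr17:58090790-58090813, plus strand: attttcatgAGTCGCcttcaaaac
NCEH1, chr3:172632791-172632814, minus strand: aaaatatgaAGTCGCatgcactgg
H2AFX, chr11:119094556-119094579, minus strand: cccatcccgAGTCGCtaaggggct

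The same search among genes lower in shAKAP2 cells gave another word, GAACACA, in 618 of 2156 lower genes (28.7%) and in 8.43% of 8686 genes not called in that line. It stands in 11.3% of all tested genes. Of the 10 genes, 2 hold it in the 3′ UTR used for the count: MORF4L1, which has neither of the words above, and NCEH1, which has AGTCGC as well. GAACACA was also chosen from the data and has no test. Both genes had lower levels in every induced shAKAP2 library than in every uninduced one, although only MORF4L1 passed the test there. KATNAL1 was likewise lower in every induced shAKAP2 library and passed the test, but does not hold GAACACA. The part of this word in these falls was not tested. DYNLRB1 has the word in another annotated transcript with a different 3′ end.
MORF4L1, chr15:78897453-78897477, plus strand: tatataactGAACACActcatccat
NCEH1, chr3:172632089-172632113, minus strand: gggtcagagGAACACAagctcatgt

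**Figure D1:**
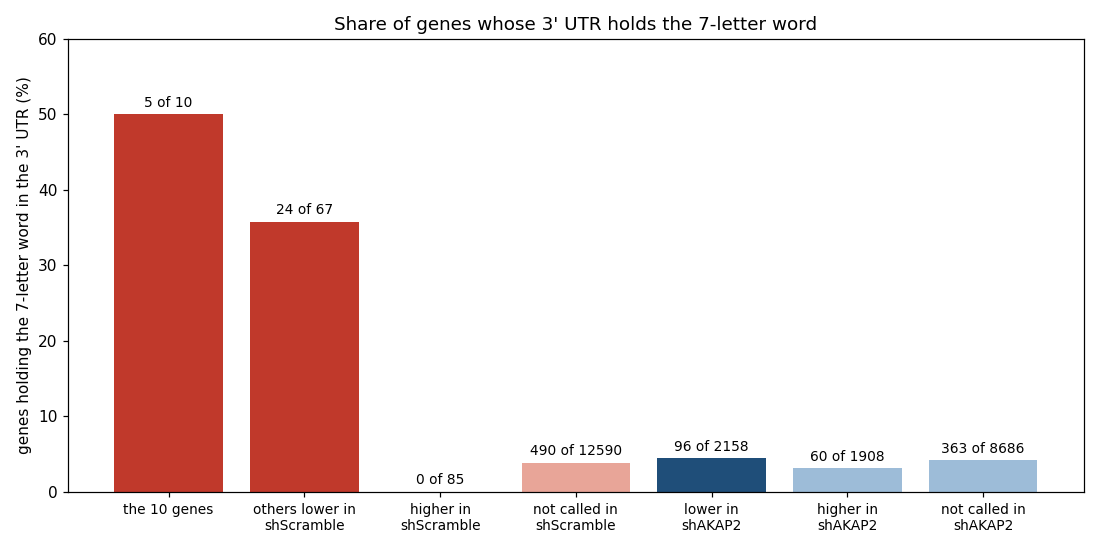
Share of genes, in percent, whose 3′ UTR holds the 7-letter word found among genes lower in induced shScramble cells, with the number of genes above each bar. The first bar is the 10 genes described here, of which 5 hold the word, the second the other genes lower in shScramble cells (24 of 67); among genes higher in that line 0 of 85 hold it, and in the shAKAP2 line the shares were 4.45% of lower, 3.14% of higher and 4.18% of uncalled genes.

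HSD17B10 (ENSG00000072506; chromosome X, 53431258 to 53434373, minus strand) encodes a mitochondrial dehydrogenase of isoleucine breakdown that is also a subunit of mitochondrial RNase P, the enzyme that trims mitochondrial tRNAs. It stood at 19.2, 18.9, 17.8 and 17.9 CPM in induced shScramble cells, against 43.6, 51.7, 59 and 55.9 CPM in uninduced ones. Every induced library was below every uninduced one, and the induced level was 35.1% of the uninduced one (log2 fold change -1.51, SE 0.085). In shAKAP2 cells its level was 50.2, 53.9, 52.2 and 56.8 CPM with doxycycline and 48.9, 49.1, 45.8 and 47.9 CPM without. The induced shAKAP2 libraries were all slightly above the uninduced ones, but the log2 difference of 0.15 (SE 0.0819; 95% interval -0.03 to 0.33) did not pass the test (adjusted p = 0.177, edgeR's quasi-likelihood test with Benjamini-Hochberg adjustment over all genes, as for every adjusted p here). The site for GTCGCCC lies 106 bases after the stop codon in a 3′ UTR of 146 bases.

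NCEH1 (ENSG00000144959; chromosome 3, 172630249 to 172711218, minus strand) encodes neutral cholesterol ester hydrolase, which releases cholesterol from stored esters. It had 89.6, 112, 132 and 124 CPM in induced shScramble cells, against 228, 269, 328 and 317 CPM in uninduced ones (log2 fold change -1.32, SE 0.109; 40.1% left). Replicate 1 was the lowest library of both groups, and the groups did not overlap. With the shAKAP2 hairpin it had 294, 293, 305 and 268 CPM in induced and 350, 355, 342 and 335 CPM in uninduced cells. The induced libraries were again all lower, at 83.9% of the uninduced level, a difference that did not pass the test (log2 -0.25, SE 0.107, adjusted p = 0.0854). It passed without both shScramble replicate 1 libraries, which share the estimate of the spread (log2 -0.26, adjusted p = 0.000318).

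DYNLRB1 and DYNLL2 encode light chains of cytoplasmic dynein, the motor that carries cargo toward microtubule minus ends; DYNLL2 also serves as a hub that many other proteins bind. DYNLRB1 (ENSG00000125971; chromosome 20, 34516409 to 34540958, plus strand) had 102, 84.7, 72.1 and 80.4 CPM in induced shScramble cells, against 197, 183, 176 and 170 CPM in uninduced ones. The shAKAP2 line had 170, 173, 176 and 176 CPM with doxycycline and 160, 162, 155 and 166 CPM without. The shScramble groups lie far apart, with 46.8% left (log2 -1.10, SE 0.081), while the shAKAP2 difference of 0.11 (SE 0.0798; 95% interval -0.06 to 0.29) did not pass the test (adjusted p = 0.312).

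DYNLL2 (ENSG00000264364; chromosome 17, 58083415 to 58095536, plus strand) was lower in induced shScramble cells and higher in induced shAKAP2 cells. It had 54.8, 56.7, 65.1 and 65.7 CPM in induced shScramble cells, against 111, 119, 107 and 103 CPM in uninduced ones (log2 -0.86, SE 0.078; 55.1% left). Its level in shAKAP2 cells was 176, 153, 148 and 167 CPM with doxycycline and 139, 143, 129 and 126 CPM without. The gene rose there 1.2-fold (log2 0.26, SE 0.0768, adjusted p = 0.013), with no overlap. That call was lost without induced replicate 1 (adjusted p = 0.0539) or uninduced replicate 4 (adjusted p = 0.0522).

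KATNAL1 (ENSG00000102781; chromosome 13, 30202630 to 30307484, minus strand), a relative of katanin, the enzyme that severs microtubules, was lower in both lines. It had 39.1, 46, 48.8 and 46.4 CPM in induced shScramble cells, against 76.4, 81.9, 70.2 and 77.1 CPM in uninduced ones (log2 -0.76, SE 0.0767; 59% left). Its shAKAP2 libraries had 60.5, 53.7, 52.8 and 56.4 CPM with doxycycline and 66, 71, 67.9 and 73.7 CPM without. It fell to 80.2% of the uninduced level there (log2 -0.32, SE 0.0764, adjusted p = 0.00339), with no overlap between the groups. No annotated 3′ UTR of KATNAL1 holds GAACACA.

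MORF4L1 (ENSG00000185787; chromosome 15, 78810487 to 78898133, plus strand) encodes MRG15, a chromodomain protein of the NuA4 acetyltransferase and SIN3 deacetylase complexes. It was low in both induced groups. It had 231, 224, 205 and 207 CPM in induced shScramble cells, against 396, 390, 390 and 410 CPM in uninduced ones. In the shAKAP2 line it had 196, 217, 221 and 212 CPM with doxycycline and 376, 379, 391 and 389 CPM without. The induced level was 54.7% of the uninduced one in shScramble cells (log2 -0.87, SE 0.0576), and it fell to 55.1% in shAKAP2 cells (log2 -0.86, SE 0.0576, adjusted p = 5.92e-10). Close copies of MORF4L1 exist, MORF4L2 among them, so its counts are uncertain to the extent that reads were split between copies. MORF4L1P1, another copy, named after its values were seen, was lower in both lines. Its log2 change was -0.72 (SE 0.136) in shScramble cells and -0.72 (SE 0.136, adjusted p = 0.000422) in shAKAP2 cells. The part of shared reads in this was not tested.

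H2AFX (ENSG00000188486; chromosome 11, 119093854 to 119095467, minus strand) encodes the histone variant H2AX, which is phosphorylated around DNA double-strand breaks. It had 36.2, 48.8, 45.3 and 42.2 CPM in induced shScramble cells, against 76.1, 107, 116 and 90.6 CPM in uninduced ones (log2 -1.18, SE 0.109; 44.3% left). Levels in shAKAP2 cells were 130, 148, 149 and 137 CPM with doxycycline and 108, 102, 99.2 and 98.5 CPM without. All induced shAKAP2 libraries were above all uninduced ones, and the gene rose 1.38-fold (log2 0.47, SE 0.107, adjusted p = 0.00237). Other H2A genes share parts of its coding sequence, which makes its counts uncertain where reads could be split.

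USP40, LMLN and EVI5L act on proteins or membranes: USP40 is a ubiquitin-specific protease, LMLN a metalloprotease of the leishmanolysin family, and EVI5L a TBC domain protein that activates the GTPase of Rab proteins. USP40 (ENSG00000085982; chromosome 2, 233475520 to 233566782, minus strand) ranged over 37.8 to 41.3 CPM in induced and 58.6 to 65.8 CPM in uninduced shScramble cells (log2 -0.65, SE 0.0641). In the shAKAP2 line its range was 84.8 to 93.2 CPM with doxycycline and 71.8 to 80.1 CPM without, and rose 1.16-fold (log2 0.21, SE 0.0632, adjusted p = 0.0169). Neither pair of groups overlapped. The shAKAP2 call was lost without induced replicate 1 (adjusted p = 0.0563), without uninduced replicate 2 (adjusted p = 0.0689) and without a filter on low counts (adjusted p = 0.113).

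LMLN (ENSG00000185621; chromosome 3, 197960200 to 198043720, plus strand) ranged over 8.78 to 11.6 CPM in induced and 18.4 to 21.4 CPM in uninduced shScramble cells, where 48.6% was left (log2 -1.04, SE 0.106). Among shAKAP2 libraries it ranged over 25.9 to 33.1 CPM with doxycycline and 21.8 to 25.3 CPM without, and rose 1.23-fold (log2 0.30, SE 0.101, adjusted p = 0.0307). This call had the largest adjusted p of the 6 in shAKAP2 cells, and it was lost without induced replicate 1 (adjusted p = 0.116) or 2 (0.0624), without uninduced replicate 1 (0.0938) or 2 (0.0851), and without a filter on low counts (0.0698). Of its exonic bases, 3.41% overlap LMLN-AS1 on the opposite strand; no use of strand is stated, so reads there cannot be told apart. The other 9 genes overlap no exon of another annotated gene.

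EVI5L (ENSG00000142459; chromosome 19, 7830233 to 7864976, plus strand) ranged over 12.1 to 17.7 CPM in induced and 28.7 to 35.2 CPM in uninduced shScramble cells (log2 -1.02, SE 0.104; 49.2% left). Its mean in shAKAP2 cells was 32.4 ± 2.81 CPM with doxycycline and 32.6 ± 1.36 CPM without (SD, n = 4 each). Those groups overlapped, and the log2 difference was -0.01 (SE 0.102; 95% interval -0.23 to 0.21; adjusted p = 0.956). With 4 libraries a group, a change within that interval is not excluded.

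**Figure D2:**
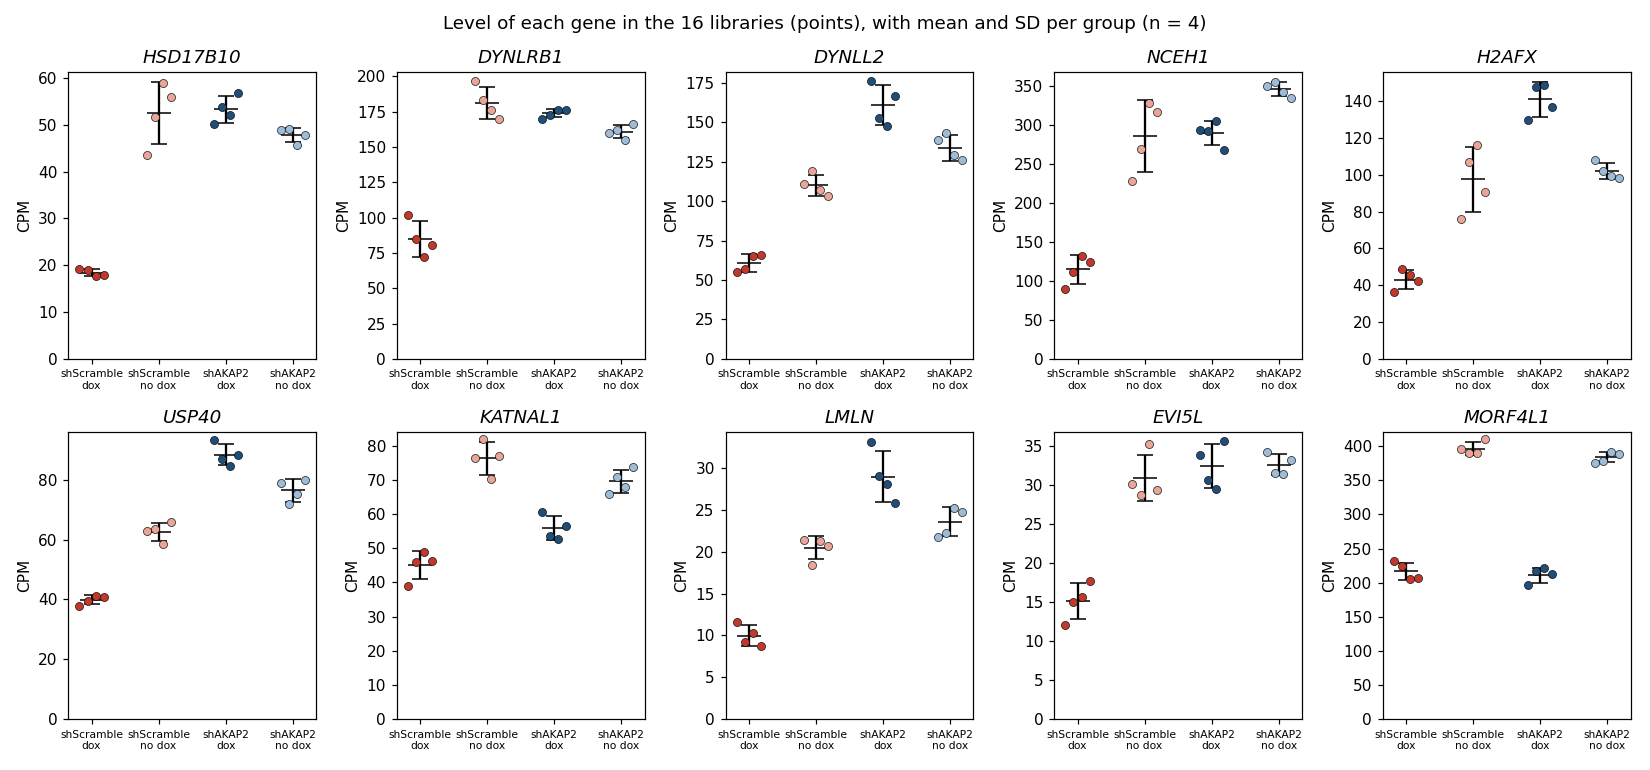
Level of each of the 10 genes in CPM, with 1 point per library and the mean and SD of each group of 4, for shScramble cells with and without doxycycline and shAKAP2 cells with and without it; every vertical axis starts at 0. In 9 panels the 4 induced shScramble libraries lie below the 12 others, and in the MORF4L1 panel both induced groups lie low, at 205 to 231 CPM in shScramble and 196 to 221 CPM in shAKAP2 cells.

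Across the 10 genes, 4 rose when the shAKAP2 hairpin was induced (DYNLL2, H2AFX, USP40 and LMLN), 2 fell (KATNAL1 and MORF4L1) and 4 did not pass the test (HSD17B10, DYNLRB1, NCEH1 and EVI5L). Without induced shAKAP2 replicate 1 only 3 of the 10 were called, with H2AFX higher and KATNAL1 and MORF4L1 lower; without uninduced replicate 2 the count was 4. Among all 15566 genes tested, 28.3% were called in that comparison, 13.1% as higher and 15.2% as lower. The median log2 change of the 10 genes was 0.13 and that of all genes 0.00. For 9 of the 10, groups of the shAKAP2 line did not overlap, 6 with the induced libraries higher and 3 with them lower; of all genes tested, 18.4% and 18.1% were separated in those directions.

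In the shScramble line all 10 were called as lower, where 0.52% of all genes were called lower (81 genes), 0.559% higher and 1.08% in either direction. In all 10 the induced libraries lay below the uninduced ones, as they did for 2.15% of all genes, with 2.29% separated the other way. The genes were chosen for this, so nothing is read from it. Without both replicate 1 libraries 414 genes were called lower; without replicate 1 of the induced or of the uninduced group the number was 163 and 168, and without any other single library 54 to 66. By p-value they take 10 of the first 11 places among lower genes, and by size of the fall they range from the place 35 of HSD17B10 to the place 433 of USP40 among all genes tested. No threshold was given for the choice. TMED4, which ranks 2 by p-value, and UBAC1, which ranks 12, stand nearest to the 10 genes without belonging to them, at log2 fold changes of -0.96 and -0.70. For 9 of the 10 genes, the induced shScramble libraries were also below all 12 other libraries, those of the shAKAP2 line included, the exception being MORF4L1. In bulk RNA, fewer cells that express a gene and less of its RNA per cell cannot be told apart. Whether the lines differ in the doxycycline effect on these genes was not tested, because any such test would use the shScramble libraries on which the genes were chosen.

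**Figure D3:**
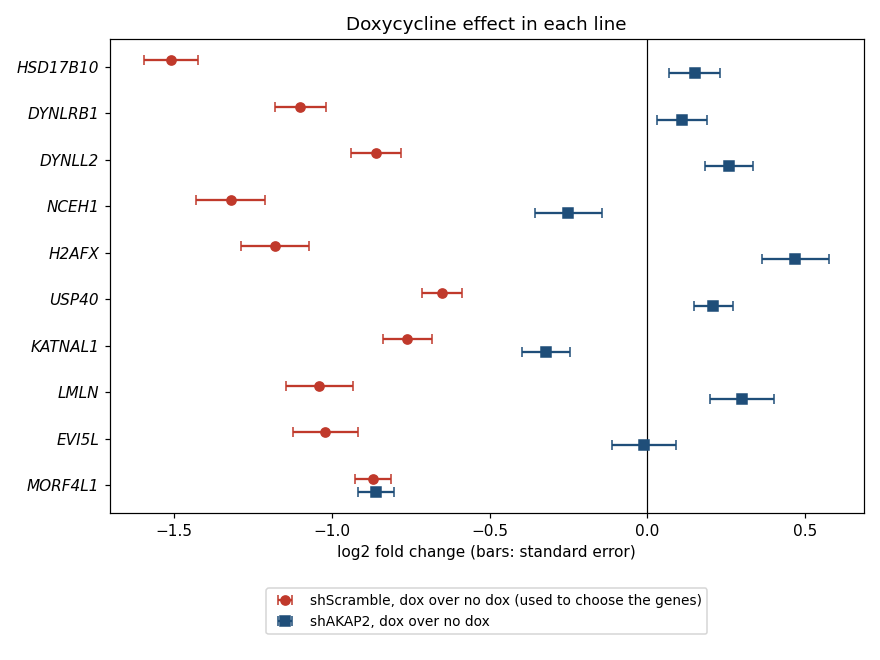
Log2 fold change of each gene, doxycycline over none, in shScramble cells (circles) and shAKAP2 cells (squares), with bars of 1 standard error. The circles lie between -1.51 and -0.65, while the squares lie between -0.32 and 0.47 except for MORF4L1, whose squares and circles coincide near -0.86.

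Other genes of the same machinery, from lists written with earlier results of these data known, gave the following counts without the 10 genes themselves. They are to be read against the 13.1% of all genes called higher and 15.2% called lower in shAKAP2 cells: the share called in either direction ran from 20% to 45.5% over the 10 lists, against 28.3% of all genes, and no difference from all genes was tested. In shAKAP2 cells 5 of 23 dynein and dynactin genes were higher and 2 lower (median log2 0.07), and in shScramble cells 0 of the 23 were called in either direction. The dynactin gene DCTN4 fell to 76.3 CPM with doxycycline against 97.1 CPM without in shAKAP2 cells (log2 -0.35, SE 0.0608, adjusted p = 0.000195). NDE1, a dynein regulator, fell to 31.7 CPM with doxycycline against 43 CPM without in shAKAP2 cells (log2 -0.44, SE 0.0773, adjusted p = 0.000202), and the dynactin gene DCTN5 rose (log2 0.29, SE 0.0647, adjusted p = 0.00205). Of 10 microtubule-severing genes 1 was higher and 1 lower in shAKAP2 cells. The lower one was SPAST, which encodes spastin (log2 -0.64, SE 0.0863, adjusted p = 9.98e-06). In shScramble cells 0 of the 10 were called.

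Of 11 genes of mitochondrial RNase P and RNA processing, 3 were higher and 2 lower in shAKAP2 cells and 0 called in shScramble cells. SLIRP, which binds mitochondrial mRNAs, fell to 32.1 CPM with doxycycline against 40.4 CPM without in shAKAP2 cells (log2 -0.33, SE 0.0926, adjusted p = 0.0102). TRMT10C, the RNase P partner of HSD17B10, rose to 73.1 CPM with doxycycline against 61 CPM without in shAKAP2 cells (log2 0.26, SE 0.0732, adjusted p = 0.0106), and in shScramble cells it differed by -0.04 (SE 0.073, adjusted p = 0.93). Of 13 mitochondrially encoded transcripts, whose tRNA-flanked precursors that enzyme processes, 0 were higher and 5 lower in shAKAP2 cells (median log2 -0.48), and 0 were called in shScramble cells (median -0.06). Mitochondrially encoded transcripts took 1.02 to 2.04% of all counts in induced and 1.86 to 2.38% in uninduced shAKAP2 libraries, and 2.2 to 3.02% in induced and 2.41 to 3.62% in uninduced shScramble libraries; the part of RNA quality in this was not tested. Genes of branched-chain amino acid breakdown had 5 higher and 3 lower of 21 in shAKAP2 cells, with IVD, the isovaleryl-CoA dehydrogenase, falling to 24.1 CPM against 51.7 CPM (log2 -1.10, SE 0.0964, adjusted p = 2.86e-08). In shScramble cells 1 of the 21 was lower: ACADSB, a dehydrogenase of the isoleucine pathway, named after its values were seen (34.5 CPM with against 47.1 CPM without doxycycline; log2 -0.45, SE 0.0862, adjusted p = 0.00867).

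Of 31 genes listed for the complexes of MRG15, a paralog included, 9 were higher and 5 lower in shAKAP2 cells, and 1 was lower in shScramble cells. That one was MORF4L2, the paralog of MORF4L1, with 339 CPM in induced and 486 CPM in uninduced shScramble cells (log2 -0.52, SE 0.0597, adjusted p = 2.96e-05). In shAKAP2 cells, where MORF4L1 fell, MORF4L2 rose (log2 0.29, SE 0.0597, adjusted p = 0.000922). The NuA4 subunit gene MEAF6 fell in shAKAP2 cells to 13.7 CPM against 35.3 CPM (log2 -1.37, SE 0.105, adjusted p = 4.65e-09). Of 21 H2A variant and H2AX signalling genes, 4 were higher and 2 lower in shAKAP2 cells and 0 called in shScramble cells; RAD50, of the break-sensing MRN complex, rose (log2 0.38, SE 0.0634, adjusted p = 0.000114) and the H2A.Z gene H2AFZ fell (log2 -0.51, SE 0.0884, adjusted p = 0.000176).

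Of 45 other ubiquitin-specific proteases, 6 were higher and 12 lower in shAKAP2 cells and 0 called in shScramble cells, with USP39 falling to 76.7 CPM against 153 CPM in the shAKAP2 line (adjusted p = 1.49e-08). Of 34 TBC domain genes, 6 were higher and 6 lower; EVI5, the nearest relative of EVI5L, fell in shAKAP2 cells (log2 -0.96, SE 0.0918, adjusted p = 1.08e-07), where EVI5L differed by -0.01. In shScramble cells 1 of the 34 was higher, TBC1D12 (log2 0.30, SE 0.0673, adjusted p = 0.0315), which was named after its values were seen. Of 14 genes of neutral lipid ester turnover, 3 were higher and 1 lower in shAKAP2 cells and 0 called in shScramble cells. DGAT2, which makes triglycerides, rose to 7.34 CPM with doxycycline against 2.77 CPM without in shAKAP2 cells (log2 1.41, SE 0.189, adjusted p = 9.59e-06), and the carboxylesterase gene CES2 fell (log2 -0.31, SE 0.0877, adjusted p = 0.0105). SOAT1, which makes the cholesterol esters that NCEH1 cleaves, rose in shAKAP2 cells (log2 0.30, SE 0.0977, adjusted p = 0.0268), and in shScramble cells it differed by 0.02 (SE 0.0978, adjusted p = 0.982). The 7 lists with 0 calls in shScramble cells held 137 entries, of which 8 had an unadjusted p under 0.05 by edgeR, 1 was called by DESeq2 and 0 by limma-voom. Without both replicate 1 libraries 2 of the 137 were called higher and 2 lower.

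The word GTCGCCC was then followed in the genes that hold it, with the 10 genes left out. In shScramble cells 24 of 514 holders were called as lower (4.67%) and 0 as higher, against 43 lower (0.352%) and 85 higher of 12228 genes that lack it; their median log2 changes were -0.04 and 0.00. These values come from the comparison in which the word was found. The shAKAP2 comparison was not used to find the word, but its libraries shared the estimate of the spread behind the shScramble calls. In shAKAP2 cells 18.5% of the holders were lower and 11.5% higher, against 16.9% and 15.1% of genes without the word, with medians of -0.02 and 0.01. Of the holders, 57.6% had a log2 change below 0 in shScramble cells and 51.6% in shAKAP2 cells, against 48.6% and 49.2% of genes without the word. Genes lower in shScramble cells had longer 3′ UTRs, with a median of 1191 bases for the 10 genes and 1565 for the other lower genes, against 1101 for genes not called, and a longer 3′ UTR holds more words by its length; the part of length in these shares was not tested.

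**Figure D4:**
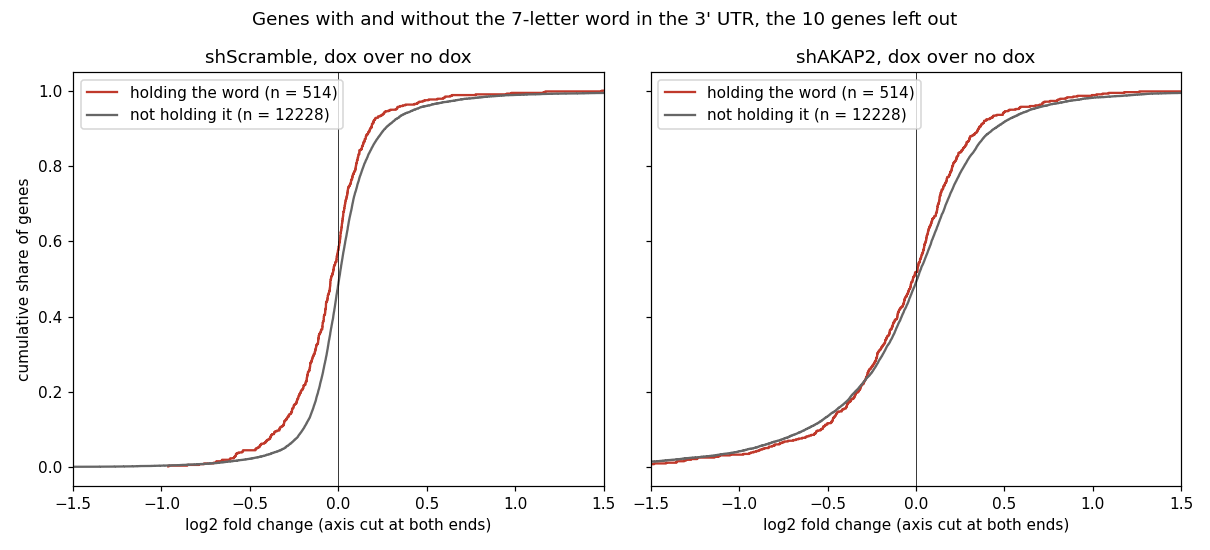
Cumulative share of genes against log2 fold change, doxycycline over none, in shScramble cells (left) and shAKAP2 cells (right), for 514 genes whose 3′ UTR holds the 7-letter word and 12228 whose 3′ UTR does not, the 10 genes left out and the axis cut at both ends. In shScramble cells the curve of holders lies left of the other, with 57.6% of holders below 0; in shAKAP2 cells the curves run close together, with 51.6% of holders below 0.

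Of the 71 other genes lower in shScramble cells, 17 were higher (23.9%), 21 lower (29.6%) and 33 not called in shAKAP2 cells, against 13.1% higher and 15.2% lower of all genes. Their median log2 change there was 0.02. The 5 with the smallest p in shScramble cells went both ways. TMED4, a transport protein of the early secretory pathway, was lower in shScramble cells (log2 -0.96, SE 0.0584) and rose in shAKAP2 cells (log2 0.30, SE 0.0576, adjusted p = 0.000461). EIF4EBP2, which holds back cap-dependent translation, was lower in shScramble cells (log2 -0.61, SE 0.0712) and rose in shAKAP2 cells (log2 0.80, SE 0.0711, adjusted p = 3.73e-08). MORF4L2 did the same, as given above. UBAC1 was lower in shScramble cells (log2 -0.70, SE 0.0758) and fell in shAKAP2 cells (log2 -0.40, SE 0.0748, adjusted p = 0.000345), as did AKIRIN1 (log2 -0.66, SE 0.0754 in shScramble cells; log2 -0.26, SE 0.0748, adjusted p = 0.0129 in shAKAP2 cells).

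The genes most like the 10 over the 16 libraries, by the Pearson correlation of log2 CPM with the mean standardised profile of the 10 among 12846 genes with a mean of at least 1 CPM, were MDM2 (r = 0.97), TMED4 (0.95), AKIRIN1 (0.93), SLC30A6 (0.92) and SLC2A4RG (0.92). These libraries share their groups, so the correlations are a description of the common dip in induced shScramble cells. MDM2, the ubiquitin ligase of p53, had log2 changes of -0.57 in shScramble and 0.02 in shAKAP2 cells. The changes of SLC30A6, a zinc transporter, were -0.28 and 0.01, and those of SLC2A4RG were -0.34 and 0.05.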

How the data were processed

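Polyadenylated RNA of 16 libraries was sequenced. The submitters' processing notes name GRCh38, STAR 2.5.2b, featureCounts and Subread 1.5.2, without their roles; annotation and strand setting are not stated. The authors deposited raw counts of reads per gene. Columns were matched to libraries by the names in the labels. The members and lists were chosen with earlier results of these data known.

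Counts were analysed with edgeR 4.0.16 in R 4.3.3: filterByExpr kept 15566 genes, TMM scaled the libraries, and all 16 entered 1 quasi-likelihood fit with 4 group means, robust option on (12 residual degrees of freedom, biological coefficient of variation 14.4%). A gene counts as called where its Benjamini-Hochberg adjusted p is under 0.05. Standard errors derive from the F statistic, and 95% intervals use 12 degrees of freedom. The procedure was tested on simulated data. Positions and 3′ UTRs come from GENCODE release 29, where 56898 of the 57500 identifiers were found. Per gene, 1 complete protein-coding transcript was used, principal before others, then the longest; 12752 tested genes had a 3′ UTR. A word had to stand in at least 5 lower genes. The sequence around the word in 1 gene is not reported here. The text names the 10 genes, genes from among the 4 of each list with the smallest p in shAKAP2 cells (not all 4), the 5 other lower genes with the smallest p and the 5 most alike. ACADSB, TBC1D12 and MORF4L1P1 were named after their values were seen. Alternatives used DESeq2 1.42.0, limma-voom (limma 3.58.1), other scaling, no filter, a replicate block, the 8 libraries of a line and left-out libraries.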

Additional observations from a re-analysis of the deposited data

Results flagged for a closer look

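For 6 of the 10 genes every induced shScramble library was below every uninduced one while every induced shAKAP2 library was above every uninduced one. Their log2 fold changes in shAKAP2 cells were 0.15 for HSD17B10, 0.11 for DYNLRB1, 0.26 for DYNLL2, 0.47 for H2AFX, 0.21 for USP40 and 0.30 for LMLN, and those of HSD17B10 and DYNLRB1 did not pass the test there. The difference between the lines was not tested. A rule on the gap between the outermost library and the next, relative to the range of the group, gave 0 outliers in the 40 combinations of gene and group. With 4 libraries a group it finds only extreme values. It does not bear on the distance of shScramble replicate 1 over all genes, given above.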

How the results depend on the processing

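The shScramble falls of the 10 genes kept their direction under all 15 alternatives, from -1.61 to -1.45 for HSD17B10 and from -0.68 to -0.62 for USP40. The genes were chosen for these falls, and every alternative reused the same shScramble libraries or a part of them. The kept direction is therefore a description and no test. In shAKAP2 cells H2AFX, KATNAL1 and MORF4L1 were called under all 15 alternatives; DYNLL2 was called under 13, USP40 under 12 and LMLN under 10. NCEH1 was called under 3 and DYNLRB1 under 1, the fit of the 8 shAKAP2 libraries alone (adjusted p = 0.0449). HSD17B10 and EVI5L were called under none. EVI5L turned to 0.01 without induced replicate 2, 0.03 without induced replicate 3 and 0.01 without uninduced replicate 1; over single libraries left out it ranged from -0.07 to 0.03. The number of the 10 called ranged from 3 to 6 when single libraries were left out, with 3 without induced replicate 1. It was 4 without a filter on low counts, 8 with the shAKAP2 libraries alone and 7 with the replicate block, where NCEH1 was added (adjusted p = 0.0458). The fit of the shAKAP2 libraries alone leaves out the libraries on which the genes were chosen. It called 6313 of all genes in shAKAP2 cells, against 4405 in the main fit.

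The number of genes called in shScramble cells was 168 and was far less stable: 101 to 409 without single libraries, 1002 without both replicate 1 libraries, 37 with the 8 shScramble libraries alone and 300 with DESeq2. With the replicate block it was 173. Same-numbered libraries did not deviate together in every pair (correlations of 0.40, 0.02, 0.20 and 0.07 in shScramble cells and -0.02 to 0.05 in shAKAP2 cells). In these lines 4 and 5 of 8 libraries correlated best with their own number. The main fit did not take the numbers as pairs. Whether same-numbered libraries, such as the 2 shScramble replicate 1 libraries, shared a batch was not tested. GTCGCCC was again the leading 7-letter word without both replicate 1 libraries, in 12.9% of 380 lower genes and 3.81% of genes not called. The leading 6-letter word, TCGCCC, stood in 6 of the 10 genes, 41.8% of other lower genes and 9.73% of genes not called. The leading 8-letter word, CCTCAGCC, stood in 2 of the 10 genes, 40.3% of other lower genes and 15.6% of genes not called. Outside the 3′ UTR the leading word was CGCCCGG, in 0 of the 10 genes, 35.8% of other lower genes and 17.8% of genes not called. GAACACA stood in 2 of the 10 genes and in 8.43% of genes not called in shAKAP2 cells. The cause of these shifts was not tested. With 4 libraries a group, the 95% interval of EVI5L in shAKAP2 cells ran from -0.23 to 0.21, and changes inside it were not excluded.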
